A study of Mus musculus with 15 samples.

Results

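The genes described here are the heat shock transcription factors Hsf1 and Hsf2 and 8 cytosolic chaperones, Dnaja1, Dnaja2, Dnajb1, Hspa8, Hspa1b, Hsph1, Hsp90aa1 and Hsp90ab1. They are 10 of the 49315 genes in the count tables, and all 10 had enough reads to be tested in every comparison. They were picked by name as a pathway after Hsf2 and Dnaja1 were seen to be low in cells treated against Sirt1. Their values in that treatment are therefore given as a description with no test, and the tests on them concern the knockdown of Lmod1.

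Polyadenylated RNA was sequenced from wild-type (WT) primary myoblasts of C57BL/6J mice, the muscle precursor cells grown out of muscle tissue. The cells came from 5 primary lines, numbered 1, 2, 3, 4 and 7. Each line received a control siRNA (siCtrl), an siRNA that targets Lmod1 (siLmod1) or one that targets Sirt1 (siSirt1), and was then differentiated for 1 day. Every group, siCtrl included, went through lipid transfection with RNAiMax, and each of the 3 groups held 5 libraries, 1 per line. The study set each knockdown against siCtrl to describe early changes in the myogenic programme. There was no heat shock and no untransfected group, and the siCtrl libraries serve both comparisons.

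Heat shock factors are trimeric transcription factors that bind heat shock elements, inverted repeats of the unit nGAAn, in the promoters of chaperone genes. HSF1 is the main activator of the stress response, and HSF2 can form mixed trimers with it and is known for roles in development and differentiation. The proteins they induce work as a relay. HSP40 proteins such as DNAJA1 bring unfolded clients to HSP70 and stimulate its ATPase, HSP110 proteins reload HSP70 with ATP, and HSP90 takes over late folding steps of kinases, receptors and muscle myosin. SIRT1 is a deacetylase for which HSF1 is a known substrate, and LMOD1 is an actin filament nucleator of the leiomodin family.

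RefSeq promoter windows, from 250 bases before to 50 bases after a transcription start on GRCm38 (mm10), were at hand for 6 of the 10 genes: Hsf2, Dnaja1, Dnaja2, Dnajb1, Hspa1b and Hsph1. They were searched for the 2-unit elements GAANNTTC and TTCNNGAA, which read the same on both strands, and for 3-unit elements, in which one more GAA or TTC unit follows in alternation at the same spacing. The 3-unit elements were also searched on both strands and contain the 2-unit ones. A 2-unit element stood in the windows of Dnaja1, Hspa1b and Hsph1, and a 3-unit element in that of Hsph1. Over all 32851 windows, 15.1% held a 2-unit and 0.603% a 3-unit element. No match was found in the windows of Hsf2, Dnaja2 and Dnajb1. The stretches with the matches are shown side by side. Dnaja1 was lowest against its control among the chaperones, Hspa1b has a classic inducible promoter, and Hsph1 is the member with the longest exact match. Capitals mark the element. Only exact units were searched for, so an element with a mismatched unit is neither counted nor marked.
Dnaja1 (chr4:40722333-40722362, plus strand): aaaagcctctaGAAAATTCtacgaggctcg
Hspa1b (chr17:34959324-34959353, minus strand): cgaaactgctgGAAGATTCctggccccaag
Hsph1 (chr5:149636279-149636308, minus strand): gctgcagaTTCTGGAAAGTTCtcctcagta

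Dnaja1 has 3 RefSeq starts, and the element lay in the window of the most upstream of them and not in the other 2. Counted from that start it began at base -124, inside an exon of a longer Dnaja1 transcript and of the antisense noncoding RNA Gm6297 in GENCODE M21. That of Hspa1b began at base -104 and lay in no annotated exon. The Hsph1 element began at base 16 after the more downstream of its RefSeq starts, within its first exon. A match is a description of letters and not a measured binding site.

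Libraries held 21004908 to 33601761 counts. Levels are given as normalised CPM, counts scaled to a fixed library total after correction by TMM factors over all 15 libraries, and as the deposited TPM where genes are compared with each other. The knockdowns could be seen in the libraries: Lmod1 was lower in siLmod1 than in siCtrl in 5 of 5 lines (mean 3.50 against 30.4 normalised CPM) and Sirt1 was lower in siSirt1 in 5 of 5 lines (6.30 against 26.3). Each target also differed in the other knockdown, with groups that overlapped siCtrl. Lmod1 had a mean of 16.7 in siSirt1, lower than siCtrl in 5 of 5 lines. Sirt1 had a mean of 38.5 in siLmod1, higher than siCtrl in 5 of 5 lines. Myogenic markers summed to between 6841 and 8966 normalised CPM in siCtrl, between 5778 and 8258 in siLmod1 and between 4564 and 8037 in siSirt1, while the 7 fibroblast markers summed to between 4.65 and 15.6, between 3.14 and 6.01 and between 2.23 and 22.7. Of these 7, Lum, Dpt and Tcf21 were at 3 counts or fewer in every library. Smooth muscle and pericyte markers summed to 89.5 to 290.3, 59.8 to 149.8 and 106.2 to 271.2 in the same order. Line 4 stood apart from the other lines on the first principal component, which held 46.2% of the variance, and the siSirt1 library of line 1 resembled line 3 nearly as much as its own line. In whole cultures, fewer cells of a type and less RNA per cell cannot be told apart.

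Per length, the constitutive chaperones dominated the set in siCtrl. Hsp90ab1, the constitutive cytosolic HSP90, had a mean of 2985 ± 240 TPM (SD, n = 5), followed by Hspa8, the constitutive HSC70, at 1453 ± 107 TPM. Hsp90aa1, the inducible HSP90, had 645 ± 290 TPM and Dnaja2 had 323 ± 29.8 TPM. Up to here, and again for the last places, the ranges of neighbours did not overlap. Hsph1 (158 TPM), Hsf1 (112 TPM), Hsf2 (92.3 TPM) and Dnaja1 (76.1 TPM) followed each other with overlapping ranges. Dnajb1 at 52.5 TPM and Hspa1b, the stress-inducible HSP70, at 8.51 TPM closed the order. This order depends on the gene lengths behind the deposited TPM. In normalised CPM the siCtrl mean of Dnaja1 was 215, above Hsf1 (74.1) and Hsf2 (79.2) and below Hsph1 (377). The summed TPM of the 10 genes ranged from 5268 to 6693 in siCtrl, from 5939 to 6970 in siLmod1, and in siSirt1 from 4685 to 6148, ranges that overlapped.

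**Figure D1:**
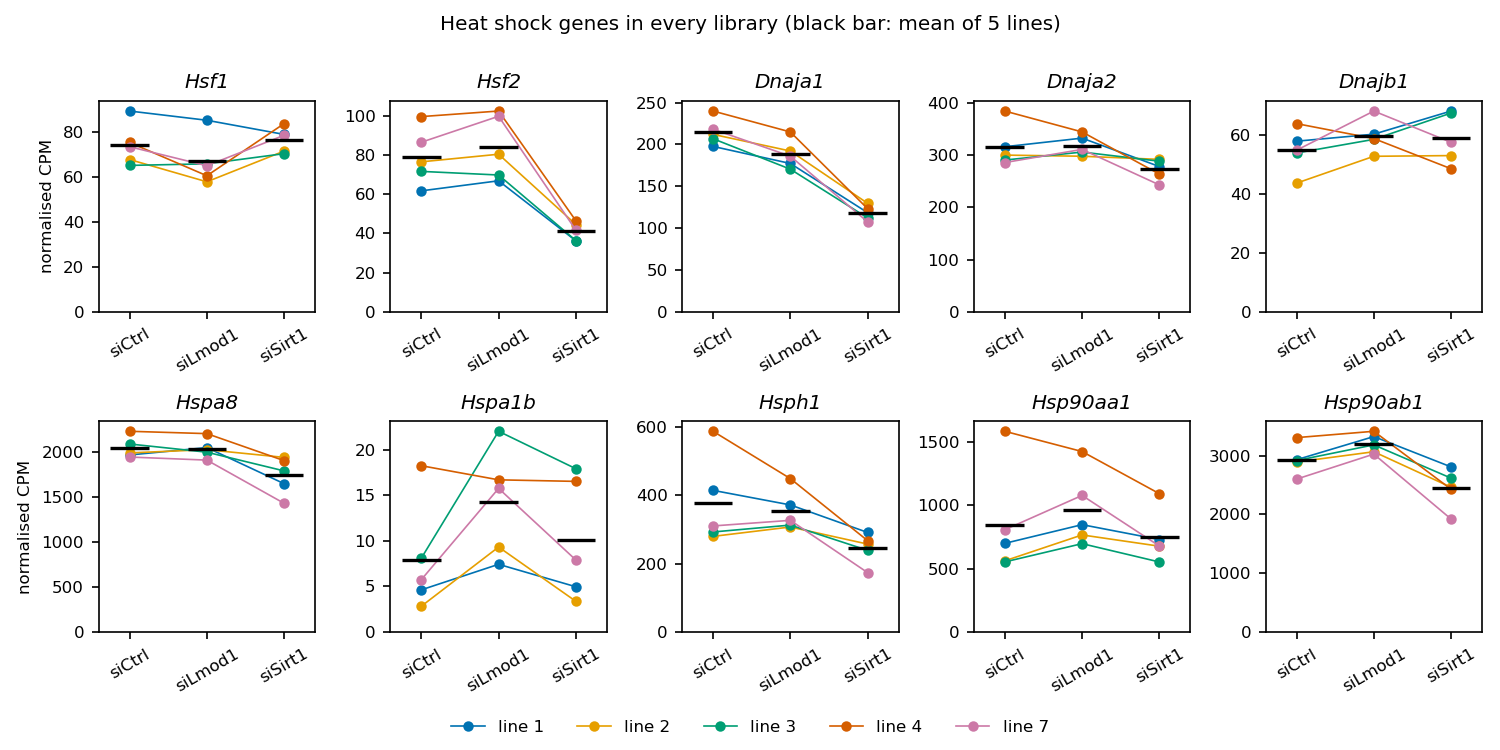
Normalised CPM of each of the 10 genes (vertical axis, starting at 0) in siCtrl, siLmod1 and siSirt1, with 1 point per library, a coloured line joining the libraries of each primary line, and a black bar for the mean of 5. Hsf2 and Dnaja1 in siSirt1 lie below every siCtrl and siLmod1 library, while Hsp90aa1 is highest in line 4 in each group.

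Hsf2 (ENSMUSG00000019878, chr10:57486385-57513135) was the gene of the set furthest below its control in siSirt1. In lines 1, 2, 3, 4 and 7 it stood at 61.7, 76.6, 71.7, 99.7 and 86.6 normalised CPM in siCtrl. The same lines gave 66.9, 80.4, 69.8, 102.5 and 99.8 in siLmod1. In siSirt1 they gave 36.2, 44.5, 36.3, 46.5 and 41.7. Every siSirt1 library was thus below every library of the other groups, and siLmod1 and siCtrl overlapped almost fully. The fitted log2 fold change of siSirt1 against siCtrl was -0.95 ± 0.14 (SE), and the 5 lines lay between -1.09 and -0.76. The lines also drew together: the SD over lines was 14.5 in siCtrl, 16.6 in siLmod1 and 4.68 normalised CPM in siSirt1, around means of 79.2, 83.9 and 41.0.

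In siLmod1, where it could be tested, Hsf2 had a log2 fold change of 0.07 ± 0.17 against siCtrl, with an edgeR adjusted p of 0.967. It was higher in 4 of 5 lines by at most 0.20. With the line as a block, which compares each knockdown with the control of its own line, the value was 0.07 ± 0.05 with an adjusted p of 0.326.

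Hsf1 (ENSMUSG00000022556, chr15:76477422-76501913) did not share this pattern. It stood at 89.2, 67.6, 65.0, 75.2 and 73.3 normalised CPM in siCtrl over lines 1, 2, 3, 4 and 7. In siLmod1 it stood at 85.1, 57.8, 65.7, 60.4 and 64.9. In siSirt1 the values were 78.8, 71.4, 70.3, 83.6 and 78.4. All 3 groups overlapped. The siSirt1 value against siCtrl was 0.05 ± 0.11 on the log2 scale, above 0 in 4 of 5 lines. In siLmod1 it was -0.16 ± 0.13, lower in 4 of 5 lines, with an edgeR adjusted p of 0.812, or 0.0568 with the line as a block. Hsf1 had on average 1.25 ± 0.35 times the TPM of Hsf2 in siCtrl and 1.08 ± 0.36 times in siLmod1. In siSirt1 this ratio was 2.43 ± 0.27, and its lowest line (2.08) lay above the highest of either other group (1.87). Its size rests on the gene lengths behind the deposited TPM. In normalised CPM the siCtrl means were 74.1 for Hsf1 and 79.2 for Hsf2.

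Of the other heat shock factors and HSF binding proteins, 6 genes were listed and 4 had enough reads to be tested in siSirt1, with 0 called. Hsbp1, a small protein that binds HSF trimers, was the most abundant of them at 139 ± 14.9 normalised CPM in siCtrl. In siLmod1 it had a log2 fold change of 0.15 ± 0.05 with the line as a block (edgeR adjusted p = 0.0292; 0.759 without the block). In siSirt1 it stood at 133 ± 18.1 normalised CPM.

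Dnaja1 (ENSMUSG00000028410, chr4:40722150-40737149) encodes a type I HSP40, a farnesylated co-chaperone of HSC70. Over lines 1, 2, 3, 4 and 7 it stood at 197.6, 212, 206.8, 239.9 and 218.2 normalised CPM in siCtrl. In siLmod1 it stood at 177.2, 192.1, 170.4, 214.9 and 185.9. In siSirt1 it stood at 118.4, 129.6, 112.1, 123.2 and 107.4. All siSirt1 libraries were below all others, and siLmod1 partly overlapped siCtrl from below. The siSirt1 log2 fold change against siCtrl was -0.86 ± 0.09, between -1.02 and -0.71 in single lines, and against siLmod1 it was -0.68 ± 0.10.

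Dnaja1 was also the member with the steadiest difference in siLmod1. It was lower than siCtrl in 5 of 5 lines, by 0.14 to 0.28 on the log2 scale, with a fitted value of -0.20 ± 0.09 and an edgeR adjusted p of 0.543. With the line as a block the value was -0.20 ± 0.04 and the adjusted p 0.00712, and it stayed under 0.05 without any one of the 5 lines. With all 15 libraries in 1 blocked fit the adjusted p was 0.0768, and over all alternatives it ranged from 0.00712 to 0.851. Part of Dnaja1 lies over Smu1, a gene of the opposite strand: 608 of its 8629 exon bases are shared, and the library kit keeps no strand. Smu1 stood at 87.6 ± 7.72, 93.8 ± 5.86 and 92.7 ± 8.48 normalised CPM in siCtrl, siLmod1 and siSirt1, with overlapping ranges.

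The other type I HSP40, Dnaja2 (ENSMUSG00000031701, chr8:85537633-85555344), was less different. It ranged from 285.7 to 384.4 normalised CPM in siCtrl, from 297.8 to 344.4 in siLmod1, and in siSirt1 from 242.9 to 291.8. The siSirt1 value was -0.21 ± 0.11 on the log2 scale and below 0 in 5 of 5 lines, with overlapping groups. In deposited TPM line 2 was higher in siSirt1 than in siCtrl (303 against 293.5). Dnaja2 had 4.25 ± 0.38 times the TPM of Dnaja1 in siCtrl, 4.93 ± 0.39 times in siLmod1 and 6.72 ± 0.47 times in siSirt1. The siSirt1 ratios (6.21 to 7.46) lay above all ratios of the other groups (at most 5.44). The size of these ratios depends on the gene lengths behind the deposited TPM. In normalised CPM the siCtrl means were 315 for Dnaja2 and 215 for Dnaja1.

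Dnajb1 (ENSMUSG00000005483, chr8:83608193-83612653), the stress-inducible HSP40 of type II, ranged from 43.7 to 64.0 normalised CPM in siCtrl, from 52.9 to 68.3 in siLmod1, and in siSirt1 from 48.6 to 68.3. Its groups overlapped throughout. The log2 fold change was 0.11 ± 0.11 in siLmod1 (edgeR adjusted p = 0.866) and 0.11 ± 0.14 in siSirt1, where line 4 was lower by 0.39 and the other 4 lines were higher.

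Hspa8 (ENSMUSG00000015656, chr9:40800984-40810087) was nearly level between siCtrl and siLmod1. It ranged from 1942 to 2228 normalised CPM in siCtrl, from 1908 to 2202 in siLmod1, and in siSirt1 from 1428 to 1938. On this scale the siSirt1 libraries lay just under the siCtrl libraries, in 5 of 5 lines, with a log2 fold change of -0.23 ± 0.14. In deposited TPM the groups overlapped, at 1162 to 1478 in siSirt1 and 1345 to 1627 in siCtrl. There, lines 2 and 4 were slightly higher in siSirt1 (1392 against 1345 and 1478 against 1467). In siLmod1 the log2 fold change was -0.01 ± 0.10, with an edgeR adjusted p of 0.993.

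Hspa1b (ENSMUSG00000090877, chr17:34956436-34959238) was scarce and differed between lines more than 6-fold in siCtrl. Over lines 1, 2, 3, 4 and 7 it stood at 4.62, 2.82, 8.10, 18.3 and 5.74 normalised CPM in siCtrl. In siLmod1 it stood at 7.43, 9.32, 22.0, 16.7 and 15.8. In siSirt1 it stood at 4.96, 3.36, 17.9, 16.5 and 7.90. The groups overlapped, and line 4 was high in all 3 of them. Against its own line, siLmod1 was higher in 4 of 5 lines by 0.63 to 1.56 on the log2 scale, and lower by 0.12 in line 4.

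The fitted siLmod1 value of Hspa1b was 0.84 ± 0.49 with an edgeR adjusted p of 0.696, and 0.99 ± 0.23 with an adjusted p of 0.0101 with the line as a block. Without line 4 the blocked value was 1.33 (adjusted p = 0.000134), and without any one of the other 4 lines the adjusted p stayed under 0.05. The adjusted p ranged from 0.000134 to 0.882 over all alternatives. In siSirt1 the value was 0.36 ± 0.58, above 0 in 4 of 5 lines and lowest in line 4 at -0.14. The neighbouring copy Hspa1a, which is not among the 10 genes, had 6.61 ± 3.34 against 3.70 ± 1.72 normalised CPM in siLmod1 and siCtrl, higher in 5 of 5 lines (blocked edgeR adjusted p = 0.0118; 0.627 without the block). In siSirt1 Hspa1a had 6.33 ± 4.08, also higher than siCtrl in 5 of 5 lines, and was not called (blocked edgeR adjusted p = 0.126; 0.634 without the block). Hspa1a and Hspa1b are near-identical: 55.8% of the 75-base words of Hspa1b also occur in Hspa1a, and 247 of the 250 bases before their starts are the same, the element shown above included. How the authors' counting divided reads between them is not given in the sources used here, so the level of each copy is uncertain.

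Hsph1 (ENSMUSG00000029657, chr5:149614287-149636376), an HSP110 that exchanges nucleotides on HSP70, was lower in siSirt1 in 5 of 5 lines but to very different extents. It stood at 415, 280.1, 293, 588.1 and 310.7 normalised CPM in siCtrl over lines 1, 2, 3, 4 and 7. In siSirt1 it stood at 291.6, 257.5, 239.2, 267.6 and 173.9. The groups overlapped, since the siSirt1 library of line 1 lay above the siCtrl library of line 2. The log2 differences ran from -1.13 in line 4 to -0.12 in line 2, with a fitted value of -0.62 ± 0.23, or -0.45 in the blocked fit without line 4. In siLmod1 its range was 307.6 to 449.5, its log2 fold change -0.10 ± 0.21 and its edgeR adjusted p 0.962.

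Hsp90aa1 (ENSMUSG00000021270, chr12:110690605-110702728) varied mainly by line. It stood at 700.2, 562.1, 553.5, 1586 and 807.7 normalised CPM in siCtrl over lines 1, 2, 3, 4 and 7. In siLmod1 it stood at 848, 766.8, 697.9, 1426 and 1079. In siSirt1 it stood at 730.5, 677.8, 553.1, 1093 and 679.3. Line 4 was the highest in each group, and the groups overlapped. In siLmod1 the other 4 lines were higher than their controls by 0.28 to 0.45 on the log2 scale and line 4 was lower by 0.15. The fitted value was 0.19 ± 0.32 with an edgeR adjusted p of 0.952. The blocked value was 0.26 ± 0.08 with an adjusted p of 0.0373, a call kept in 1 of the 5 blocked fits that leave out a line, the one without line 4 (0.37, adjusted p = 0.000478). The adjusted p ranged from 0.000478 to 1.00 over all alternatives.

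Hsp90ab1 (ENSMUSG00000023944, chr17:45567775-45573271) ranged from 1920 to 3413 normalised CPM over the 15 libraries. It stood at 2929, 2890, 2915, 3305 and 2599 normalised CPM in siCtrl over lines 1, 2, 3, 4 and 7. In siLmod1 it stood at 3323, 3065, 3182, 3413 and 3025, and in siSirt1 at 2807, 2461, 2616, 2427 and 1920. In siLmod1 it was higher than siCtrl in 5 of 5 lines, by 0.05 to 0.22 on the log2 scale. The fitted value was 0.12 ± 0.12 with an edgeR adjusted p of 0.864 and, with the block, 0.12 ± 0.05 with an adjusted p of 0.0872. In siSirt1 it was lower than siCtrl in 5 of 5 lines, with a value of -0.26 ± 0.15, and the groups overlapped. In deposited TPM line 1 was higher in siSirt1 than in siCtrl (3331 against 3066).

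**Figure D2:**
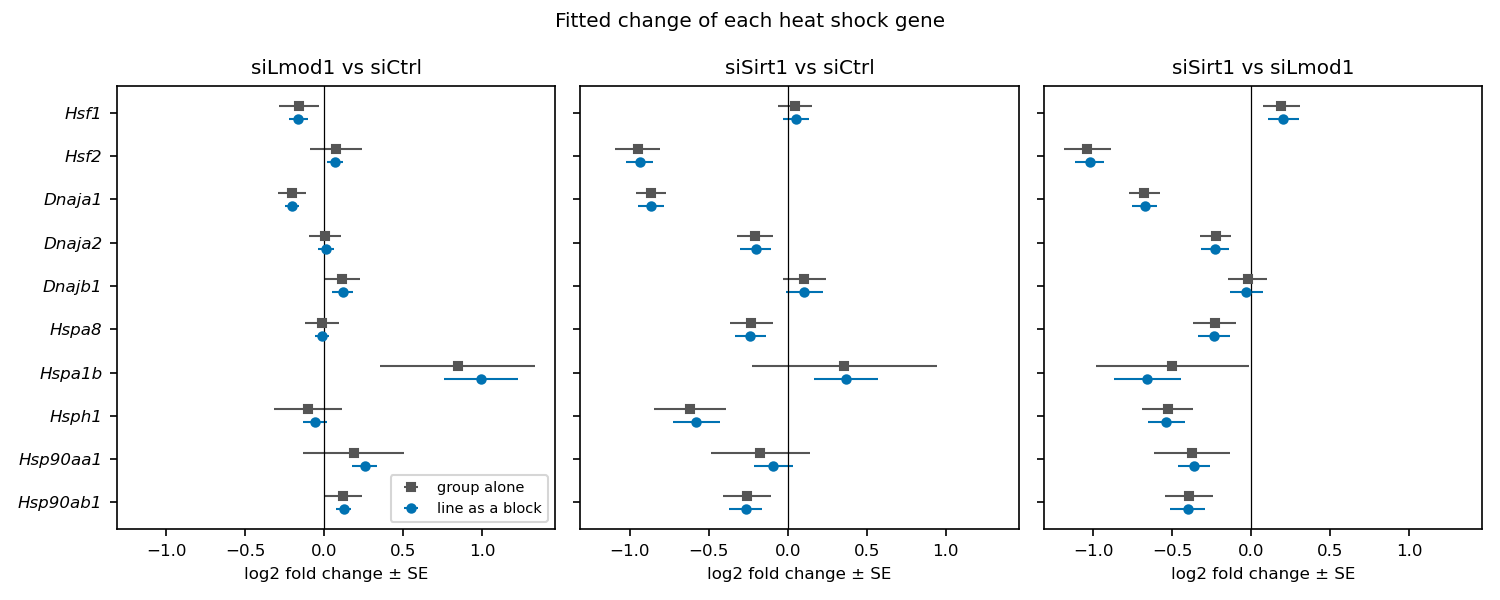
Log2 fold change with its SE (horizontal axis) of each of the 10 genes in siLmod1 against siCtrl, siSirt1 against siCtrl and siSirt1 against siLmod1, from the fit by group alone (squares) and with the line as a block (circles). Hsf2 and Dnaja1 lie furthest to the left in siSirt1, and Hspa1b furthest to the right in siLmod1.

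Counted as a set, 0 of the 10 genes were called in siLmod1 against siCtrl, and 0 of the 10 had groups that did not overlap (2.72% of all genes tested). The calls were made by edgeR's quasi-likelihood test at a Benjamini-Hochberg adjusted p under 0.05, which called 0.113% of the 15022 genes tested (17 genes, and 1351 at an unadjusted p under 0.05). DESeq2 also called 0 of the 10. The edgeR fit by group alone did not call Lmod1 itself, at -3.13 ± 0.54 (adjusted p = 0.0685; 2.8e-06 with the line as a block). A count of 0 in that fit is therefore no sign that these genes were unchanged. The only member with an unadjusted p under 0.05 was Dnaja1 (0.0464). With the line as a block, Dnaja1 fell and Hspa1b and Hsp90aa1 rose, which is 3 of 10 beside 29.5% of all genes. That share is near the background and is no result about the set. The median log2 fold change of the 10 was 0.04, beside -0.01 over all genes tested.

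In siSirt1 against siCtrl, 7 of the 10 genes lay below 0, with a median of -0.22 beside 0.02 over all 14912 genes tested. In normalised CPM, Hsf2, Dnaja1 and Hspa8 had siSirt1 libraries that all lay below the siCtrl libraries, as did 1.64% of the genes tested. For Hspa8 this was by less than 5 normalised CPM, and its groups overlapped in deposited TPM. The members were chosen on this contrast, so nothing is read from these counts. Set directly against siLmod1, siSirt1 had 9 of the 10 below 0, with a median of -0.38 beside 0.02, and Hsf1 above 0 at 0.19 ± 0.12. Dnajb1, at -0.02 there, was at 0.06 without TMM factors. Without TMM factors the median of all genes in siSirt1 against siCtrl was 0.13 in place of 0.02. All values shift up with it, to -0.83 for Hsf2 and -0.75 for Dnaja1, and none of the 10 changed sign.

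How much of each gene's spread went with treatment and how much with the line differed widely. Of the variance of log2 normalised CPM over the 15 libraries, the treatment held 93.0% for Dnaja1 and 81.7% for Hsf2, shares that the choice of these genes favours. Hsp90ab1 followed at 61.9% and Hspa8 at 50.8%. The line held more than the treatment for Hsp90aa1 (80.7%), Hspa1b (67.0%), Hsf1 (52.0%) and Dnajb1 (41.3%). For these genes the treatment held 11.03% (Hsp90aa1), 21.2% (Hspa1b), 24.43% (Hsf1) and 10.04% (Dnajb1). Hsph1 and Dnaja2 had 43.46% and 43.35% with treatment, and 39.87% and 25.04% with the line.

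**Figure D3:**
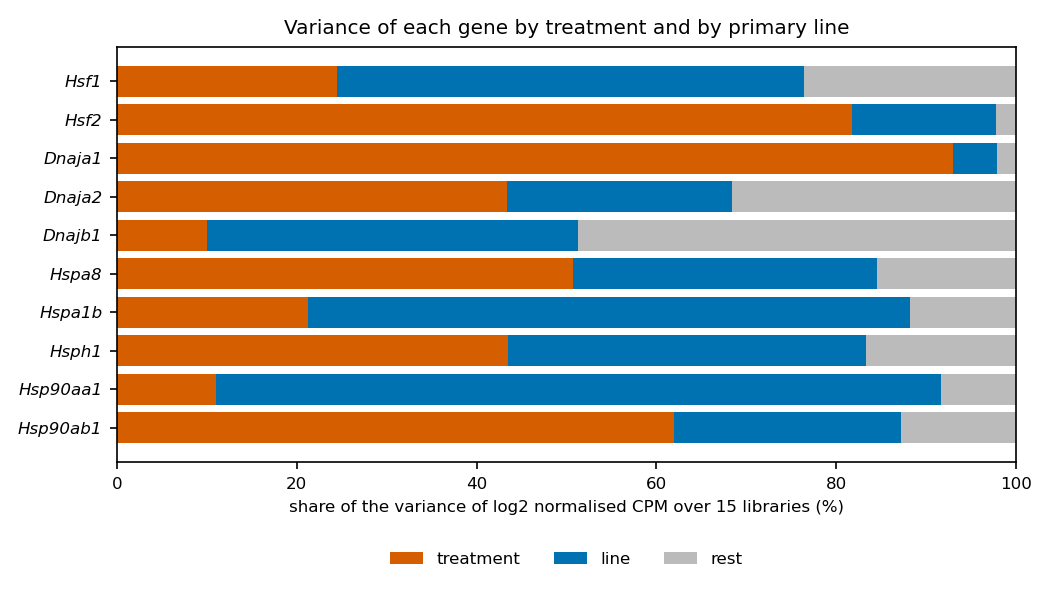
Share of the variance of log2 normalised CPM over 15 libraries (horizontal axis, percent) held by treatment, by primary line and by the rest, 1 stacked bar per gene. Dnaja1 and Hsf2 vary mostly with treatment (93.0% and 81.7%), and Hsp90aa1 mostly with line (80.7%).

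Genes with the most similar pattern were ranked by the Pearson r of log2 normalised CPM over the 15 libraries after each line's mean was removed, among the 9955 genes whose mean reached 5 normalised CPM. For Hsf2 they were Psmd2 (0.993), a proteasome subunit, Itsn2 (0.988), Dusp28 (0.986), Atad3a (0.986) and C1galt1 (0.985). For Dnaja1 they were Rprd1a (0.992), Ubtd2 (0.987), Pkia (0.981), Nol11 (0.978) and Fam98a (0.977). Psmd2 had means of 611, 655 and 379 normalised CPM in siCtrl, siLmod1 and siSirt1, and Rprd1a 35.4, 29.7 and 17.7. Hsf2 and Dnaja1 correlated with each other at 0.957, which ranked Hsf2 as number 34 for Dnaja1 and Dnaja1 as number 68 for Hsf2. Hsf1 correlated with Hsf2 at -0.58. These libraries share 5 lines and 3 treatments, so any gene that differs in siSirt1 alone scores high.

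The wider chaperone network, 94 other genes in 11 lists, was counted next. In siLmod1 0 of 91 tested genes were called by edgeR without the block, and 0 by DESeq2. At an unadjusted p under 0.05 were 5 of the 91, beside 1351 of all 15022 genes tested. With the block 15 of the 91 rose and 11 fell, 28.6% beside 29.5% of all genes. In siSirt1 0 of 92 were called by edgeR without the block, where 0.127% of all genes were called, and 2 by DESeq2. At an unadjusted p under 0.05 were 18 of the 92, beside 1440 of all 14912 genes tested. The edgeR fit without the block did not call Sirt1 itself, at -2.06 ± 0.37 (adjusted p = 0.0735; 0.00272 with the block). With the block 2 rose and 10 fell, 12 of 92 beside 7.07% of all genes, and 3 to 5 were called when any one line was left out. The median log2 fold change of the 92 without the block was -0.12, beside 0.02 over all genes.

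Small heat shock proteins, the ATP-independent holdases of muscle, were all below 0 in siSirt1, 7 of 7, with a blocked median of -0.59 (-0.48 with library totals alone, again 7 of 7). In siLmod1 they were 7 of 7 below 0 as well, with a blocked median of -0.14. There 2 of 7 were called, near the 29.5% of all genes in that fit. With library totals alone 4 of 7 were below 0 in that fit, and the difference between the knockdowns was not tested. Hspb7, which binds filamin in muscle, had 63.4 ± 18.7 normalised CPM in siCtrl and 21.01 ± 9.20 in siSirt1, lower in 5 of 5 lines (blocked log2 fold change -1.63 ± 0.19, edgeR adjusted p = 0.00567; 0.0868 without the block). Hspb3 had 40.6 ± 9.18 and 18.9 ± 7.51 in the same groups, lower in 5 of 5 lines (blocked -1.20 ± 0.20, adjusted p = 0.0162; 0.287 without the block). Hspb6 and Hspb1 did not pass, at blocked values of -0.84 ± 0.21 and -0.59 ± 0.20. Hspb7 also fell in siLmod1 in the blocked fit, by 0.36 on the log2 scale (adjusted p = 0.00471; 0.797 without the block). Myogenic markers were below 0 in siSirt1 for 5 of 8 genes, with a blocked median of -0.28. Their part in the small heat shock protein values was not tested.

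All 8 subunits of TRiC, the cytosolic chaperonin that folds actin and tubulin, were below 0 in siSirt1, with a blocked median of -0.32 (-0.20 with library totals alone, where 1 of 8 turned above 0 in the fit without the block). Cct6a, Cct3 and Cct5 fell in the blocked fit, at -0.35 ± 0.08, -0.47 ± 0.12 and -0.33 ± 0.08, with edgeR adjusted p-values of 0.0436, 0.04986 and 0.04996, all just under the threshold, and from 0.373 to 0.493 without the block. The blocked fit called 7.07% of all genes tested. With RLE factors in place of TMM 1 of 8 was called with the block, and with library totals alone 0. In siLmod1 the TRiC median was -0.03 and 0 of 8 were called with the block.

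HSP90 co-chaperones were below 0 in siSirt1 for 12 of 14 genes, with a median of -0.19, or 10 of 14 with library totals alone. With the block 3 fell, in a fit that called 7.07% of all genes. Under the block 1 fell with RLE factors in place of TMM, and with library totals alone 2 fell and 1 rose. Fkbp5, an immunophilin of steroid receptor complexes, lay on the other side: it had 17.4 ± 6.64 normalised CPM in siCtrl and 29.2 ± 7.26 in siSirt1, higher in 5 of 5 lines, and did not pass (blocked 0.79 ± 0.20, edgeR adjusted p = 0.0571; 0.401 without the block). Ahsa1, the activator of the HSP90 ATPase, stood at 139 ± 21.6 normalised CPM in siCtrl and 108 ± 7.32 in siSirt1 (blocked -0.35 ± 0.09, edgeR adjusted p = 0.0492; 0.341 without the block). Its relative Ahsa2 had a blocked value of -0.49 ± 0.10 (adjusted p = 0.0263; 0.316 without the block), and Unc45b, the myosin chaperone of striated muscle, -0.78 ± 0.19 (adjusted p = 0.0492; 0.573 without the block). In siLmod1 Ahsa1 rose in the blocked fit (0.15 ± 0.05, adjusted p = 0.0384) and Ahsa2 fell (-0.31 ± 0.06, adjusted p = 0.00290), with adjusted p-values of 0.822 and 0.575 without the block.

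Among the HSP70 and HSP40 relatives, Hspa4l, an HSP110 like Hsph1, had 171 ± 62.5 normalised CPM in siCtrl and 108.5 ± 35.7 in siSirt1 and fell in 5 of 5 lines in the blocked fit (-0.64 ± 0.08, edgeR adjusted p = 0.00730; 0.453 without the block). Dnajb2 fell with it (-0.42 ± 0.10, adjusted p = 0.0468; 0.617 without the block). It was the 1 of 12 other HSP40 genes called, near the 7.07% of all genes called in that fit. With library totals alone 0 of these 12 fell and 1 rose in the blocked fit. In siLmod1 3 of these 12 rose and 3 fell with the block, beside 29.5% of all genes called in that fit. These HSP40 genes included Dnajb4, a heat-inducible one, at 0.39 ± 0.06 and Dnajc5 at -0.46 ± 0.06. Of the 9 HSP70 cofactors 0 were called in siSirt1. The lowest of them, Bag2, had a blocked value of -0.57 ± 0.14.

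Chaperones of the endoplasmic reticulum, which answer mainly to the unfolded protein response, lay on the other side in siSirt1: 10 of 11 were above 0, with a blocked median of 0.17, and 10 of 11 also with library totals alone. Hspa5 (BiP), the HSP70 of this compartment, had 905 ± 320 normalised CPM in siCtrl and 1327 ± 614 in siSirt1 and rose in the blocked fit in 5 of 5 lines (0.50 ± 0.10, edgeR adjusted p = 0.0280; 0.653 without the block). Dnajb9 rose in siSirt1 (0.66 ± 0.08, adjusted p = 0.00730; 0.568 without the block) and in siLmod1 (0.72 ± 0.10, adjusted p = 0.000738; 0.511 without the block). Of the 10 mitochondrial chaperones, 5 rose and 1 fell in siLmod1 with the block, a fit that called 29.5% of all genes. Transcripts encoded by the mitochondrial genome were above 0 there too, 12 of 13 with a blocked median of 0.17 and 2 called. Their share of all counts was 2.80% ± 0.43 (SD, n = 5) in siLmod1 against 2.33% ± 0.30 with the control siRNA, and 2.45% ± 0.39 after Sirt1 knockdown. Their part in the mitochondrial chaperone values was not tested. Hspd1 was among the 5 chaperones that rose (0.21 ± 0.05, adjusted p = 0.0126; 0.805 without the block). In siSirt1 0 of the 10 were called, and Hspd1 had a blocked value of -0.33 ± 0.09 (adjusted p = 0.0694; 0.491 without the block). Prefoldin subunits were called with the block for 0 of 6 in siSirt1 and for 2 of 6, 1 in each direction, in siLmod1. The latter is near the 29.5% of all genes.

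**Figure D4:**
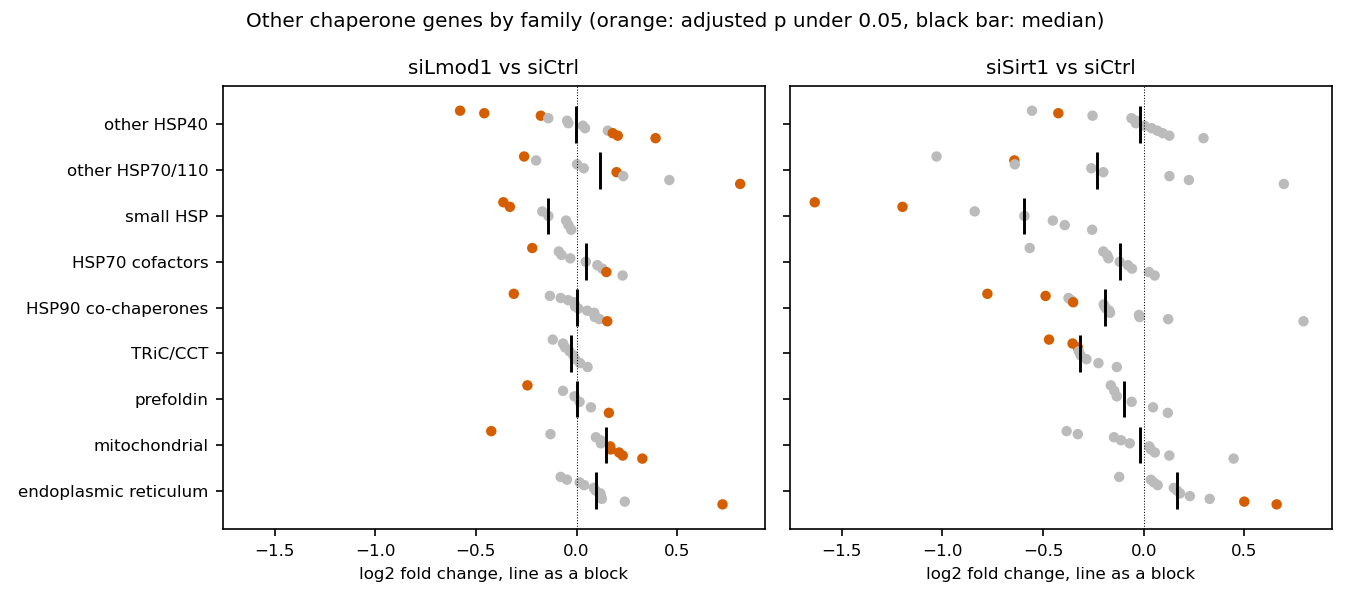
Log2 fold change with the line as a block (horizontal axis) of the other chaperone genes by family in siLmod1 and siSirt1 against siCtrl, 1 point per gene, orange where the edgeR adjusted p was under 0.05 and with a black bar at the family median. Small heat shock proteins and TRiC subunits lie to the left of 0 in siSirt1 (medians -0.59 and -0.32) and endoplasmic reticulum chaperones to the right (0.17).

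Of 13 genes that are textbook targets of HSF1 and not among the 10 (several are also in the families above), 12 were below 0 in siSirt1, with a median of -0.27 without the block. The 1 above 0 was Hspa1a, at 0.78 without the block (edgeR adjusted p = 0.634) and higher in 5 of 5 lines. With library totals alone 9 of 13 were below 0. With the block and TMM factors Ahsa1 was the 1 gene called, in a fit that called 7.07% of all genes. With RLE factors or library totals alone the blocked fit called 0, and the fit without the block called 0. Fkbp4, an HSP90 immunophilin, and Stip1, which joins HSP70 to HSP90, had blocked values of -0.36 ± 0.10 and -0.37 ± 0.12 with edgeR adjusted p-values of 0.0637 and 0.0947. In siLmod1 the 13 had a median of 0.05, and 3 rose and 1 fell with the block, near the 29.5% of all genes called.

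Calls were also counted by promoter element. Of the 94 other chaperone genes 76 had a window, 20 of them with a 2-unit element, and 4 with a 3-unit element: Chordc1, Dnajb6, Hspd1 and Hspe1. The windows of Hspd1 and Hspe1, a head-to-head pair, share the same bases. Chordc1 held 3 overlapping 3-unit elements in 1 unbroken run, the longest of these genes. It is printed with Hspe1 and Dnajb6, so that the element of Hsph1 can be set beside the others.
Chordc1 (chr9:18292260-18292289, plus strand): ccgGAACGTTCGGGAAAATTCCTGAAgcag
Hspe1 (chr1:55088056-55088085, plus strand): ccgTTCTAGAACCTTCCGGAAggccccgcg
Dnajb6 (chr5:29735844-29735873, plus strand): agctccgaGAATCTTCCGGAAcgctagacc

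Over the whole table, 62 tested genes had a 3-unit element, and 2 rose and 4 fell in siSirt1 with the block, 9.68% beside 7.62% of the 10692 tested genes with any window. Among the 1460 with a 2-unit element the share was 7.53%. In siLmod1 the shares were 26.6% of 64 genes with a 3-unit element, 31.0% of 1467 with a 2-unit element and 31.6% of 10731 with any window. Without the block, 0 of the genes with a 3-unit element were called in either comparison.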

How the data were processed

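Raw read counts per Ensembl gene and TPM (values scaled by length and library) were deposited by the authors for each pair of groups. The submitters' processing notes name mm10 and DESeq2. Aligner, counter and annotation: not given in the sources used here. Per the labels' protocols, libraries were polyA-selected with TruSeq v2, an unstranded kit. The authors' normalized tables were not used. Symbols were matched for 48970 of the 49315 gene IDs.

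Counts were tested for each pair of groups with edgeR 4.0.16 in R 4.3.3 (filterByExpr, TMM, quasi-likelihood F test, Benjamini-Hochberg over all genes tested, threshold 0.05), by group alone, which left 8 residual degrees of freedom, and with the line as a block, which left 4. The blocked fit recovered known changes in simulated counts of siSirt1 and siCtrl. There the libraries of a line shared their means apart from the planted changes, so an uncertain pairing was not covered. No recovery was required of the fit by group alone. Log2 values use normalised CPM plus 0.5. Alternatives were RLE scaling, no low-count filter, DESeq2 1.42.0, limma 3.58.1 on log2(TPM + 1), all 15 libraries in 1 fit, and leaving out libraries or lines. Library totals without TMM factors were added after the data were seen, as were the blocked fits of siSirt1 against siLmod1 that leave out a line and the list counts under other scalings. The number of lines, 5 per group, limits the precision. The smallest count of a gene in the set was 77, for Hspa1b in siCtrl.

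Labels give 5 primary lines, and the replicate number was taken as the line. After group means were removed, same-numbered libraries correlated at 0.354 to 0.945 (median 0.836, 15 pairs) and others at -0.592 to 0.318 (60 pairs), so the numbers pair the libraries. The siSirt1 library of line 1 is least certain: it correlated at 0.354 with the siCtrl library of line 1 and 0.318 with that of line 3. No 2 libraries of a group agreed within sampling noise. With 1 transfection per line and group, p-values of the fit by group alone measure the spread between these lines. Those of the blocked fit measure how the difference from the control of the same line varies over the lines.

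The 10 genes and the gene lists were chosen with earlier results of these data known. Named genes were the 10, from each list up to 4 with the smallest blocked p in each comparison, Lmod1, Sirt1, and the 5 most similar genes for Hsf2 and Dnaja1. Genes named outside this rule were chosen after their values were seen. Promoter sequences are from RefSeq, on GRCm38.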

Additional observations from a re-analysis of the deposited data

Results flagged for a closer look

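In siCtrl, Hsp90aa1 stood at 1586 normalised CPM in line 4, far from the other 4 lines, the nearest of which was at 807.7. The gap was 0.754 of the whole range of the group. Line 4 was also the highest in siLmod1 and siSirt1. With 30 groups of 5 libraries checked, 10 genes in 3 groups, chance sets apart about 1 group in 20.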

How the results depend on the processing

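The count of genes called moved with nearly every choice. In siLmod1 against siCtrl, 17 genes became 4430 with the line as a block, 6 with no filter on low counts, 360 with DESeq2, 38 with all 15 libraries in 1 fit and 1427 in that fit with the block. Leaving out a library gave 3 to 10, and leaving out a line from the blocked fit 2833 to 4264. In siSirt1 against siCtrl, 19 became 1054 with the block, 7 with no filter, 7 with library totals alone, 376 with DESeq2, 150 and, with the block, 2530 with all 15 libraries, and 2 with TPM in limma. Leaving out a library gave 3 to 13, and leaving out a line from the blocked fit 332 to 580.

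Of the 10 genes in siLmod1, 0 called became 3 with the block, 1 with all 15 libraries and the block, and 2 to 4 when a line was left out of the blocked fit. Leaving out a library gave 0 without the block. Of the other chaperones, 0 became 26 and 7 in siLmod1 under the same 2 settings, and 0 to 26 when a library or line was left out. In siSirt1 0 became 12 and 28 under these settings, 2 with DESeq2 and 1 with all 15 libraries, and 0 to 5 when a library or line was left out. The blocked siSirt1 fits rest in part on the uncertain pairing of line 1.

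Values near 0 in siLmod1 changed sign. Hspa8 was 0.0384 with library totals alone and 0.0308 with TPM in limma, and Dnaja2 was -0.00209 with no filter. Leaving out a library or line gave -0.0164 to 0.168 for Hsf2, -0.0324 to 0.0847 for Dnaja2, -0.0504 to 0.0185 for Hspa8, -0.209 to 0.114 for Hsph1 and -0.00605 to 0.544 for Hsp90aa1. In siSirt1 Hsf2 lay between -1.04 and -0.79 and Dnaja1 between -0.91 and -0.71 over 23 alternatives, and Hsp90aa1, near 0, was above 0 in 3. The cause of these moves was not tested. With 5 lines, changes smaller than the spread between lines could not be called without the block.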
